A study of Macaca mulatta with 4 samples.

Results

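The genes described here are 8 transcription factors of the oligodendrocyte lineage, OLIG1, OLIG2, SOX10, NKX2-2, MYRF, TCF7L2, SOX5 and SOX6, chosen by their symbols and read in single nuclei of the fetal rhesus macaque cerebellum. Of the 8 symbols, 6 had a row among the 30807 genes of the deposited gene lists. SOX10 and NKX2-2 are not analysed here. OLIG1 had 1 unique molecular identifier (UMI) in all nuclei together, in the LPS male library and in a premyelinating nucleus, and is not described further. The remaining 5 genes, OLIG2, MYRF, TCF7L2, SOX5 and SOX6, had UMIs in every library.

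The study used single-nuclei RNA sequencing to ask how exposure of the amniotic cavity to bacterial lipopolysaccharide (LPS), a model of chorioamnionitis, alters the developing cerebellum. The Control group was a female and a male fetus without intervention, both of 130 days of gestational age. The LPS group was a female fetus of 131 days and a male fetus of 133 days, delivered 5 days after 1 mg of LPS was given into the amniotic fluid. Each fetus gave 1 library, so a group held 2 libraries and the p-values below measure the spread between these fetuses. As a group was 1 female and 1 male, that spread includes any difference between the sexes. The libraries are named Control female, Control male, LPS female and LPS male, and 4 values in a row follow that order.

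Oligodendrocytes arise from dividing precursors that carry the PDGF receptor alpha, pass through a short premyelinating stage and then wrap axons with myelin. OLIG1 and OLIG2 are basic helix-loop-helix factors, and OLIG2 specifies the lineage and is kept through its early stages. SOX5 and SOX6, which bind DNA but carry no activation domain of their own, hold precursors in an immature state. TCF7L2 is a nuclear partner of beta-catenin that is expressed for a short time as precursors differentiate, and MYRF, a membrane-bound factor that cuts itself free to enter the nucleus, switches on the myelin genes.

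The libraries held 34282015 to 61665690 UMIs. A barcode counted as a nucleus if it held 500 or more genes and no more than 5% of its UMIs came from mitochondrial genes, which gave 9250, 8621, 6890 and 7804 of them, of which 16 to 21 barcodes were shared by each pair of libraries, where random draws would share 7.91 to 11.7. Nuclei were deeper in both female libraries, with medians of 4508 and 4063 UMIs, than in both male libraries, with 1882 and 2308.5, so sex and depth cannot be told apart in this design. Nuclei were clustered without the 6 genes that had a row among the variable features. Classes were named from fixed marker lists that held none of the 8 symbols, so that a name stands for nuclei with the markers of that class. The oligodendrocyte lineage was a cluster of 465 nuclei, 126, 95, 87 and 157, in which all 13 markers of the lineage were raised. Free RNA, profiled in barcodes with at most 100 UMIs, was estimated at 15.1, 17.3, 9.08 and 21.4% of the UMIs in these nuclei.

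On re-clustering, the lineage gave 34 cycling precursors, 154 oligodendrocyte precursors, 140 premyelinating nuclei in a pair of clusters and 81 myelinating nuclei. A further cluster of 56 nuclei, 33.9% of which were called doublets, scored highest for precursors. It raised none of the 8 markers of that list and was left unnamed. Myelinating nuclei were 8.73% (exact 95% binomial interval 4.44 to 15.1), 5.26% (1.73 to 11.9), 9.2% (4.05 to 17.3) and 36.3% (28.8 to 44.3) of the lineage. The LPS male library thus held 57 of the 81. The LPS female share was above both Control shares, but on 8 nuclei and within the interval of each. Intervals and limits cover counting error only.

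**Figure D1:**
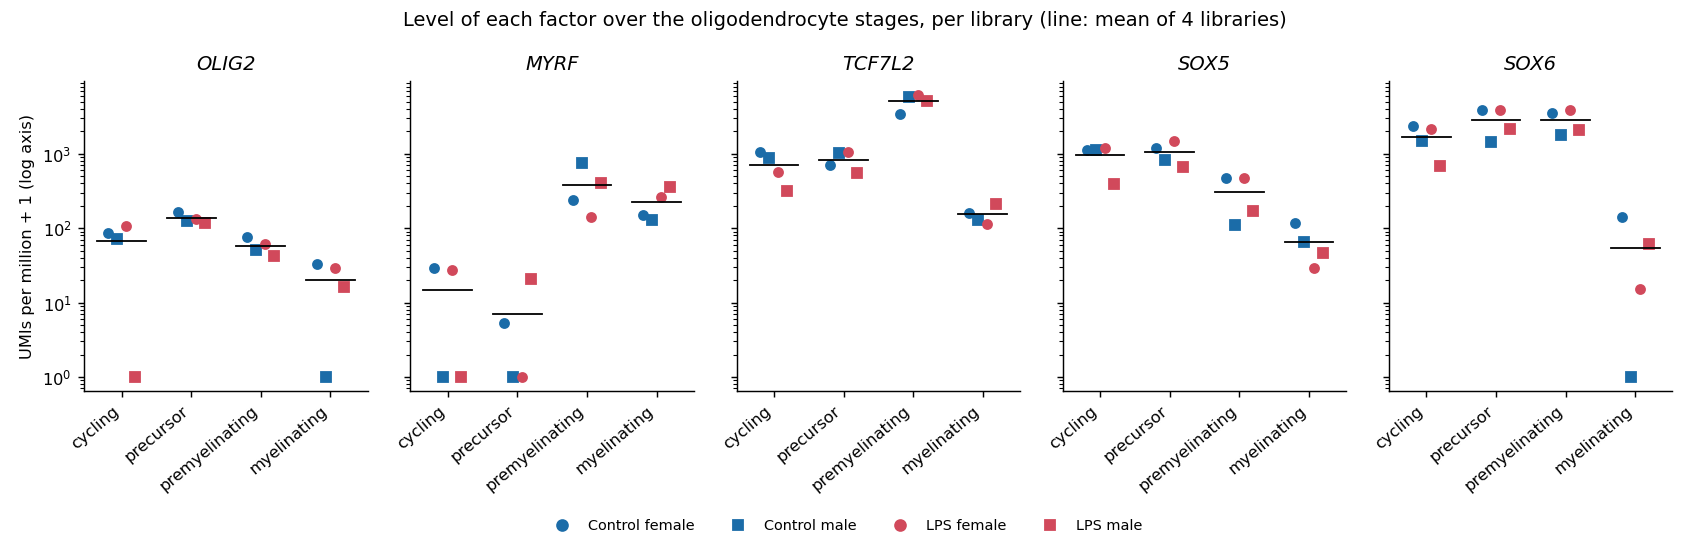
Levels of OLIG2, MYRF, TCF7L2, SOX5 and SOX6 in the 4 named stages of the oligodendrocyte lineage. The y axis is CPM plus 1, where CPM is UMIs per 1e6 UMIs of the summed nuclei, on a log axis; points are libraries, colour marks the group and shape the sex, and lines are means of 4 libraries. In every library TCF7L2 was highest in premyelinating nuclei, OLIG2 was highest in precursors, and SOX5 and SOX6 were lowest in myelinating nuclei.

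OLIG2, gene ENSMMUG00000017652, was sparse, with 351 UMIs in 32565 nuclei, of which 53.6% fell in the oligodendrocyte lineage, a class with 1.43% of the nuclei and 2.13% of the UMIs. In oligodendrocyte precursors its level was 162, 124, 132 and 118 UMIs per 1e6 UMIs of a library's summed nuclei (CPM), 134 ± 19.6 (SD, n = 4 libraries), from 37, 10, 19 and 12 UMIs. In premyelinating nuclei it was 76.2, 50.1, 59.3 and 41.0 CPM, 56.6 ± 15 (SD, n = 4). The precursor level was the higher in 4 of 4 libraries, with a log2 difference of 1.25 ± 0.19 (SD, n = 4), and the Control and LPS libraries overlapped at both stages. Within the premyelinating stage OLIG2 was higher in the cluster led by GPR17 and BMP4, with a mean of 93.8 CPM, than in the other cluster, with 31.3 CPM, by 1.61 ± 0.88 on the log2 scale and in 4 of 4 libraries. This rested on 15, 5, 9 and 5 UMIs against 11, 1, 4 and 2, so the male libraries add little. GPR17 is a receptor of newly committed oligodendrocytes. In myelinating nuclei OLIG2 rested on 3, 0, 2 and 4 UMIs, or 32.2, 0, 27.9 and 15.1 CPM. It was measured lower than in premyelinating nuclei in 4 of 4 libraries, with a log2 difference of -2.33 ± 2.23 (SD, n = 4). In Control male 3 UMIs would be 96.3 CPM, above the premyelinating 50.1 CPM. The 0 UMIs of that library thus cannot show a lower level, and they enlarge the mean difference. In cycling precursors OLIG2 rested on 6, 2, 4 and 0 UMIs and did not differ from premyelinating nuclei beyond the spread, with a difference of -0.98 ± 2.96. It was the higher in 3 of 4 libraries, and without LPS male, at 0 UMIs, the difference was 0.49 ± 0.35 (SD, n = 3). OLIG2 was higher in both female than in both male libraries in all 4 stages. Of genes with at least 10 UMIs, 18.5, 20.7, 21.3 and 14.5% were so in cycling precursors, precursors, premyelinating and myelinating nuclei. With 9 UMIs in myelinating nuclei OLIG2 was itself not among those genes there.

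MYRF, gene ENSMMUG00000006655, was nearly absent from precursors and present in both later stages. Of its 604 UMIs, 70% lay in the lineage. Precursors held 3 MYRF UMIs in all, 1, 0, 0 and 2, where 3 UMIs in a library correspond to 13.2 to 37.3 CPM. Premyelinating nuclei had 237, 751, 141 and 398 CPM, 382 ± 268 (SD, n = 4), and myelinating nuclei 150, 128, 265 and 352 CPM, 224 ± 104. Both male libraries were above both female libraries in premyelinating nuclei, as were 26.9% of the 7917 genes with at least 10 UMIs there. In myelinating nuclei both LPS libraries were above both Controls, on 5 to 57 nuclei a library, as were 17% of the 6220 genes with at least 10 UMIs there. Of the 5 genes in the 4 stages, SOX5 in myelinating nuclei and TCF7L2 in cycling precursors had the opposite order, both LPS libraries below both Controls. For SOX5 this rested on 11, 2, 2 and 12 UMIs (11.7% of genes had that order), and for TCF7L2 on 76, 25, 21 and 20 UMIs (15.7% of 4384 genes). The LPS male cycling precursors were those rich in granule markers, and the part of this in TCF7L2 was not tested. For MYRF the premyelinating and myelinating stages are compared next. The stages did not differ from each other beyond the spread, with a log2 difference of 0.62 ± 1.44 (SD, n = 4) and the premyelinating level higher in 3 of 4 libraries. Inside the premyelinating stage MYRF went the opposite way to OLIG2. It was lower in the GPR17 cluster, at 105, 693, 65.3 and 244 CPM, than in the other cluster, at 322, 795, 182 and 631 CPM, in 4 of 4 libraries and by 1.16 ± 0.65 on the log2 scale.

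TCF7L2, gene ENSMMUG00000022799, marked the premyelinating stage. It had 697, 1031, 1063 and 551 CPM in precursors, 835 ± 252 (SD, n = 4), then 3420, 5798, 6135 and 5081 CPM in premyelinating nuclei, 5109 ± 1208, and 161, 128, 112 and 208 CPM in myelinating nuclei, 152 ± 42.4. No library of a stage overlapped with a library of the next stage. The premyelinating level was higher by 2.63 ± 0.40 than that of precursors and by 5.06 ± 0.67 than that of myelinating nuclei on the log2 scale (SD, n = 4), each in 4 of 4 libraries. With classes drawn from a marker score in place of clusters, the mean in myelinating nuclei was 1095 CPM in place of 152 CPM. Cycling precursors, at 1066, 879, 563 and 315 CPM, did not differ from other precursors beyond the spread. The GPR17 cluster, with 2249, 3929, 3551 and 3376 CPM, lay between precursors and the other premyelinating cluster, which had 4172, 7227, 7522 and 7643 CPM and was higher in 4 of 4 libraries by 1.01 ± 0.15 on the log2 scale.

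SOX5 and SOX6, genes ENSMMUG00000020370 and ENSMMUG00000002753, were both lowest in myelinating nuclei but differed from each other in the premyelinating stage. SOX5 was at 1206, 820, 1473 and 669 CPM in precursors, 1042 ± 366 (SD, n = 4), and at 469, 108, 470 and 170 CPM in premyelinating nuclei, 304 ± 192. It was lower in premyelinating nuclei in 4 of 4 libraries, by 1.97 ± 0.67 on the log2 scale, and the libraries of the stages did not overlap. SOX6 was at 3885, 1428, 3919 and 2155 CPM in precursors, 2847 ± 1254, and at 3523, 1777, 3847 and 2069 CPM in premyelinating nuclei, 2804 ± 1033, a log2 difference of 0.02 ± 0.20. Precursors and premyelinating nuclei were thus not distinct in SOX6. In myelinating nuclei SOX5 was at 118, 64.2, 27.9 and 45.4 CPM and SOX6 at 140, 0, 14 and 60.5 CPM, both lower than in premyelinating nuclei in 4 of 4 libraries. Over the whole lineage free RNA was estimated to give 43.8, 38.2, 24 and 43 CPM of SOX5 and 31.7, 29.9, 14 and 26.6 CPM of SOX6. The myelinating levels of SOX5 in both LPS libraries and of SOX6 in LPS female were close to these estimates.

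Within the premyelinating stage SOX6 was higher in the GPR17 cluster, with 5570, 2388, 5405 and 2498 CPM there and 2209, 1310, 3012 and 1423 CPM in the other. The difference was 0.96 ± 0.25 on the log2 scale, in 4 of 4 libraries, and that of SOX5 was 1.62 ± 0.28, likewise in 4 of 4. Both genes stood higher in both female libraries than in both male libraries in precursors and in premyelinating nuclei, as were 20.7 and 21.3% of genes with at least 10 UMIs there. These stage levels are a description without a test, since the stages are clusters of the same nuclei.

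In the unnamed oligodendrocyte cluster OLIG2 had 27.2 to 130 CPM, TCF7L2 295 to 661 CPM, SOX5 283 to 726 CPM and SOX6 544 to 1998 CPM. Its MYRF level was 7.57, 0, 29.9 and 70.8 CPM. These values lay closer to precursors than to premyelinating nuclei for TCF7L2 and MYRF.

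The share of nuclei with a UMI was read over all libraries together after each nucleus was thinned to 1000 UMIs, which left out 3 of 154 precursors, 2 of 140 premyelinating nuclei and 845 of 22457 granule nuclei, 611 of the latter from Control male. OLIG2 was found in 13.2% of thinned precursors, 7.97% of premyelinating and 2.47% of myelinating nuclei, against 0.116% of granule lineage nuclei, a neuronal class. MYRF was found in none of 151 precursors, which allows a share of up to 1.99%, and in 25.4 and 29.6% of premyelinating and myelinating nuclei, against 0.171% of granule nuclei. TCF7L2 went from 47.7 to 92.8 and to 18.5% over the same stages. SOX5 went from 58.3 to 22.5 and to 3.7%, and SOX6 from 86.8 to 75.4 and to 6.17%. Without thinning, premyelinating nuclei (median 5358 UMIs) held OLIG2 in 28.6% and MYRF in 73.6%, and granule nuclei (median 3272 UMIs) in 0.419 and 0.481%. UMIs of these 2 genes were thus found far more often in the lineage than in the granule nuclei that reached this depth.

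**Figure D2:**
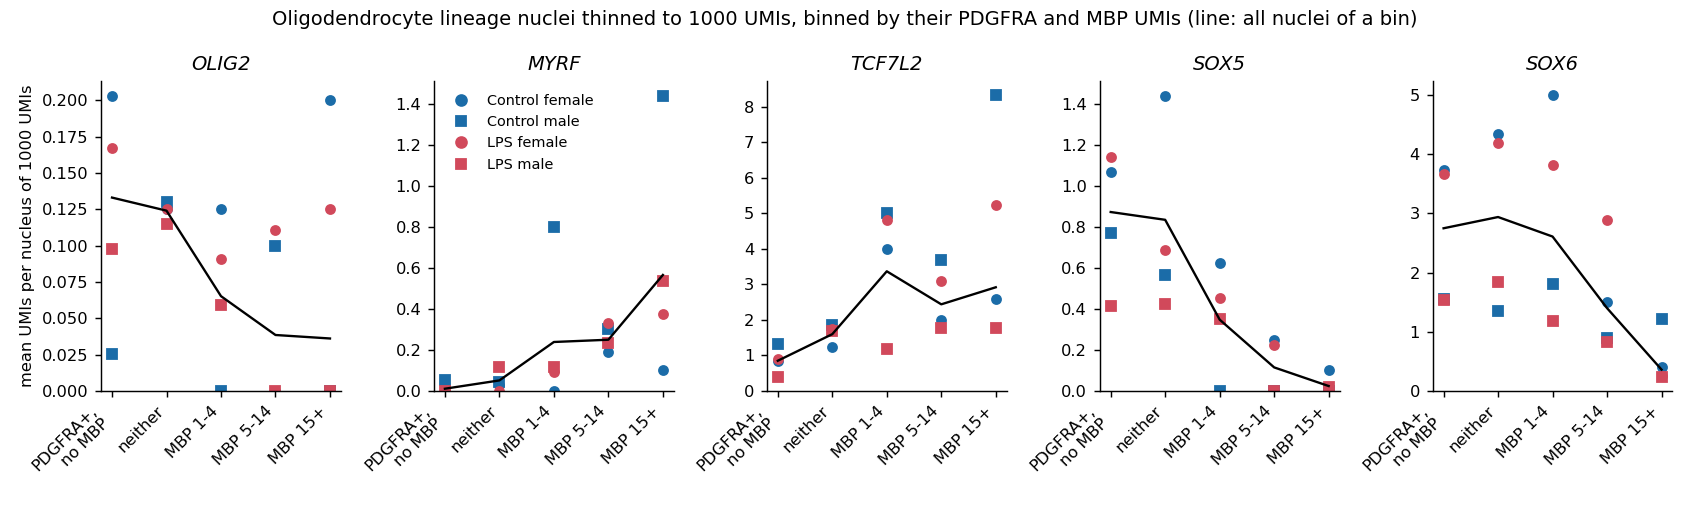
Mean UMIs of OLIG2, MYRF, TCF7L2, SOX5 and SOX6 per oligodendrocyte lineage nucleus thinned to 1000 UMIs (y axes), in bins of nuclei by their PDGFRA and MBP UMIs (x axes). Points are libraries, colour marks the group and shape the sex, and the line is the mean of all nuclei in a bin, where SOX5 goes from 0.873 to 0.0241 and MYRF from 0.011 to 0.566.

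The order was also read without the stage clusters, by placing thinned nuclei of the lineage by their UMIs of PDGFRA, the receptor of precursors, and MBP, which encodes myelin basic protein. The bins held 181 nuclei with PDGFRA and no MBP, 97 with neither, and 46, 52 and 83 with 1 to 4, 5 to 14 and 15 or more MBP UMIs. Over all nuclei of a bin, MYRF was at 0.011, 0.0515, 0.239, 0.25 and 0.566 UMIs per nucleus. By library it went from 0 to 0.1, 0.0513 to 1.44, 0 to 0.375 and 0 to 0.536 between the first and the last bin, higher in 4 of 4, but it was higher in every bin than in the one before only in LPS male. SOX5 was at 0.873, 0.835, 0.348, 0.115 and 0.0241 over all nuclei. It was lower in the last bin than in the first in 4 of 4 libraries, from 1.07 to 0.1, 0.769 to 0, 1.14 to 0 and 0.415 to 0.0179, although in Control female and LPS male the second bin, at 1.44 and 0.423, was above the first. SOX6 was at 2.75, 2.94 and 2.61 through the lowest MBP bin and at 1.4 and 0.361 above it, over all nuclei. By library it went from 3.73 to 0.4, 1.56 to 1.22, 3.67 to 0.25 and 1.54 to 0.232 between the first and the last bin. It was thus lower in 4 of 4, but only a little in Control male. OLIG2 was at 0.133 in the first bin and 0.0361 in the last, but by library it went from 0.203 to 0.2, 0.0256 to 0, 0.167 to 0.125 and 0.0976 to 0, so the difference between these bins was small in both female libraries. Over all nuclei TCF7L2 went from 0.851 and 1.6 to 3.37, and stayed at 2.44 and 2.92 in the bins richest in MBP. Of the 83 nuclei in the highest bin, 27 were premyelinating and 56 myelinating by cluster, and 56 came from the LPS male library. TCF7L2 there was at 2.6, 8.33, 5.25 and 1.77 UMIs per nucleus, lowest in LPS male, where 45 of the 56 nuclei were myelinating, and highest in Control male, where 8 of 9 were premyelinating.

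Members were also compared inside single premyelinating nuclei. Of 138 thinned nuclei, 35 had a MYRF UMI and 103 did not. SOX6 was found in 60% of nuclei with MYRF and in 80.6% of those without. By library it was found in 3 of 4, 11 of 18, 2 of 4 and 5 of 9 nuclei with MYRF, or 75, 61.1, 50 and 55.6%, and in 81.6, 73.3, 95.7 and 70.4% of those without, so the share was lower with MYRF in 4 of 4 libraries on few nuclei. SOX5 was found in 8.57 and 27.2% over all libraries, but in 25 and 50%, 0 and 0%, 25 and 26.1%, and 11.1 and 11.1% by library, so that within libraries it was apart only in Control female, on 4 nuclei with MYRF. TCF7L2 was found in 97.1 and 91.3% over all libraries, and in 75 and 89.5%, 100 and 100%, 100 and 95.7%, and 100 and 85.2% by library, so 3 of 4, 18 of 18, 4 of 4 and 9 of 9 MYRF nuclei also carried it. Nuclei of 1 library share their source, and these shares are given without a test.

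**Figure D3:**
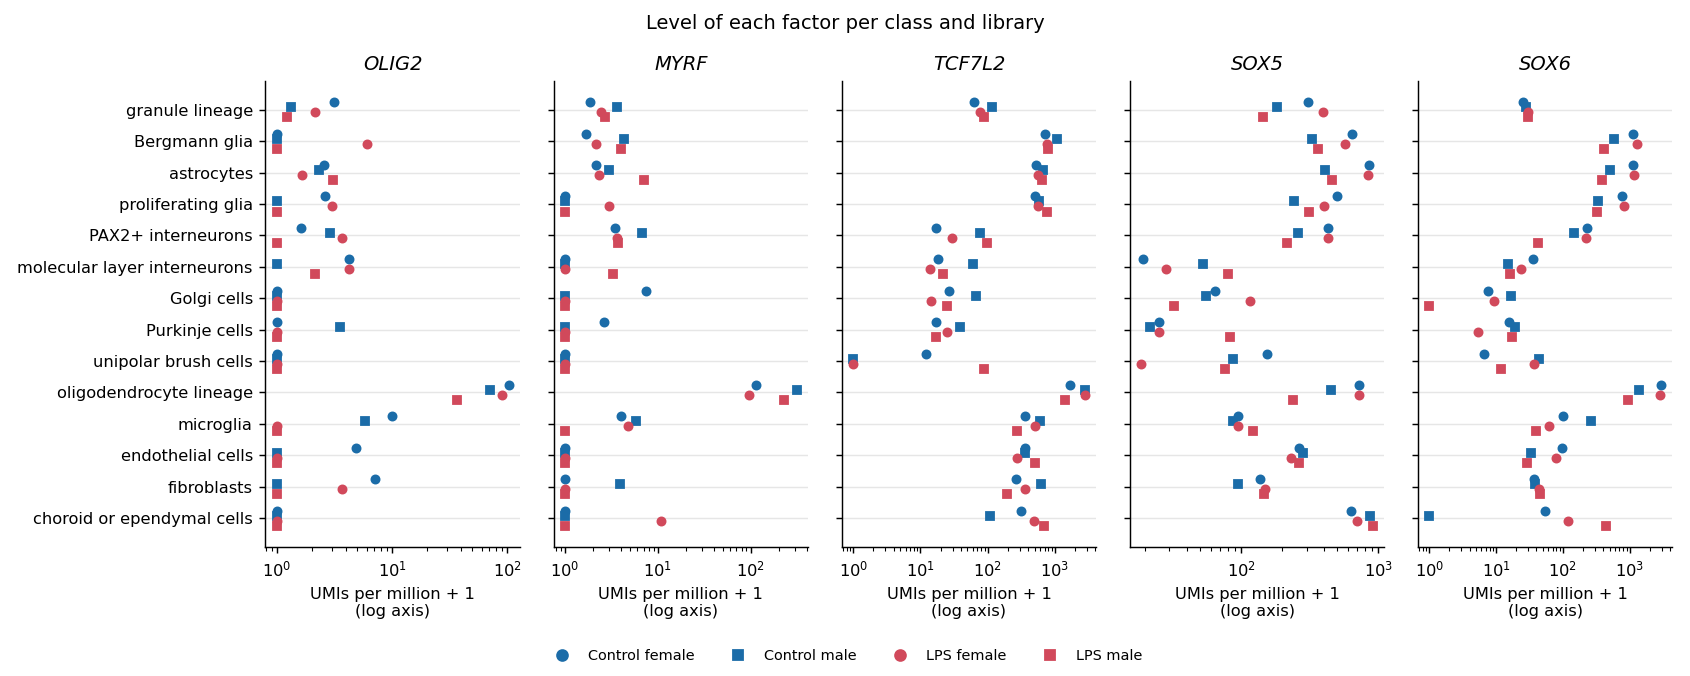
Levels of OLIG2, MYRF, TCF7L2, SOX5 and SOX6 in each class of nuclei. The x axes are CPM plus 1, on log axes; points are libraries, colour marks the group and shape the sex. OLIG2 and MYRF stood out in the oligodendrocyte lineage and were at 0 to 9.79 CPM elsewhere, while TCF7L2, SOX5 and SOX6 were also found in astroglia.

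Outside the lineage, OLIG2 and MYRF were at 0 to 9.79 CPM in every other class and library. In the lineage as a whole OLIG2 had 102, 69.8, 89.1 and 35.7 CPM and MYRF 114, 312, 94.3 and 225 CPM. The next class in the order of OLIG2 was the 262 nuclei with microglia markers, of which 7 of 7 were raised but whose leading genes, such as F13A1 and MRC1, are known from macrophages. It was lower by 4.66 ± 1.47 on the log2 scale (SD, n = 4). For MYRF it was PAX2+ interneurons, lower by 5.31 ± 0.53. In granule nuclei OLIG2 was measured at 2.14, 0.33, 1.14 and 0.218 CPM, where free RNA was estimated to give 2.25, 0.873, 1.55 and 1.99 CPM. OLIG2 was thus below this estimate in all 4 libraries, so the estimate can be too high. MYRF was measured in granule nuclei at 0.862, 2.64, 1.43 and 1.67 CPM, with 0.657, 0.175, 1.07 and 0.709 CPM estimated from free RNA. It was thus above its estimate in all 4 libraries. That estimate rests on few MYRF UMIs, since free RNA held the gene at 4.79, 1.2, 8.82 and 3.72 CPM. These are levels among 1461924, 833073, 1247023 and 1345721 UMIs. Whether granule nuclei express MYRF was not tested.

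TCF7L2 was highest in the lineage, with 1682, 2772, 2751 and 1405 CPM, and next in Bergmann glia, the radial astrocytes that guide granule cells, with 702, 1061, 771 and 778 CPM. Astrocytes followed with 520, 658, 567 and 644 CPM, beside proliferating glia with 512, 570, 559 and 756 CPM, from which they did not differ beyond the spread. The steps from the lineage to Bergmann glia and from these to astrocytes were 1.33 ± 0.40 and 0.46 ± 0.17 on the log2 scale (SD, n = 4), each in 4 of 4 libraries, and that from astrocytes to proliferating glia 0.01 ± 0.18. Taken by stage, Bergmann glia and oligodendrocyte precursors were not distinct, with a log2 difference of 0.02 ± 0.39. The class with microglia markers (268 to 603 CPM), endothelial cells (276 to 502 CPM) and fibroblasts (190 to 609 CPM) also held TCF7L2. So did the 39 choroid or ependymal nuclei (109 to 682 CPM), and interneurons, Golgi cells and Purkinje cells had at most 95.7 CPM.

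SOX6 had 2926, 1376, 2812 and 933 CPM in the lineage, 1131, 580, 1286 and 410 CPM in Bergmann glia and 1137, 512, 1140 and 385 CPM in astrocytes. The lineage was the higher in 4 of 4 libraries, by 1.23 ± 0.10 over Bergmann glia on the log2 scale (SD, n = 4), and the glial classes were not distinct from each other. PAX2+ interneurons, immature inhibitory neurons, had 225, 145, 222 and 41 CPM. SOX5 did not set the lineage apart, and the 39 choroid or ependymal nuclei held it at 626 to 910 CPM. The lineage levels of 718, 452, 718 and 237 CPM lay beside 851, 406, 844 and 455 CPM in astrocytes and 638, 327, 572 and 365 CPM in Bergmann glia, and neither step exceeded the spread. Precursors alone were above both glial classes in SOX5 in 4 of 4 libraries, by 0.72 ± 0.24 over astrocytes and 1.12 ± 0.26 over Bergmann glia.

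**Figure D4:**
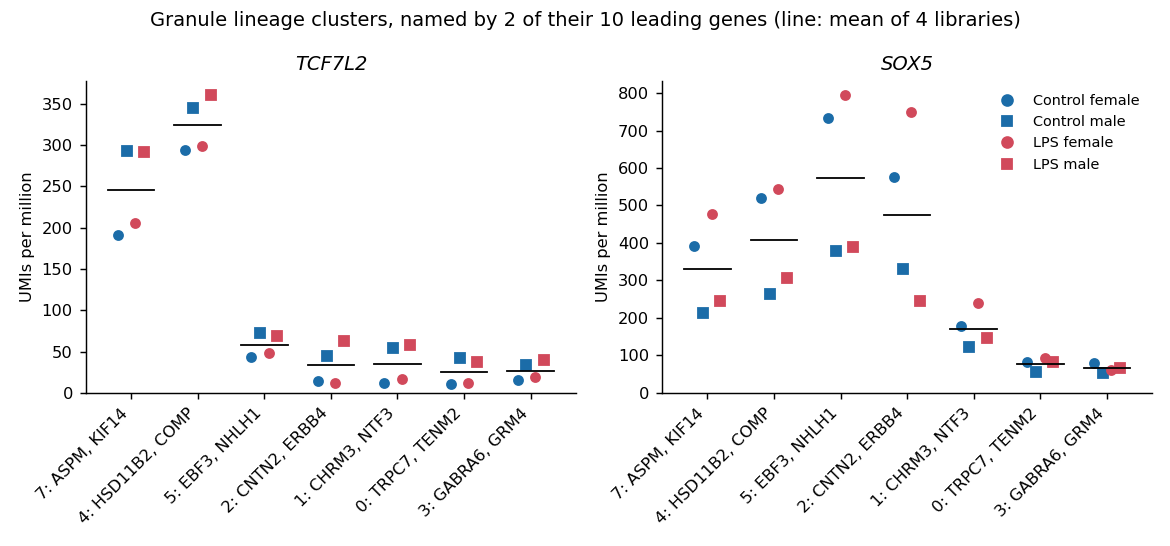
TCF7L2 and SOX5 in the 7 clusters of the granule lineage (x axes, with leading genes). The y axes are CPM; points are libraries, colour marks the group and shape the sex, and lines are means of 4 libraries. TCF7L2 was at 191 to 360 in the cycling cluster and in the one led by HSD11B2 and COMP and at most 72.3 elsewhere, and SOX5 was highest in the cluster led by EBF3 and NHLH1.

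Granule cells, the most numerous neurons of the cerebellum, carried TCF7L2 and SOX5 in some of their clusters. Across all 22457 granule nuclei TCF7L2 had 62.5, 114, 76.9 and 86.6 CPM and SOX5 305, 182, 392 and 144 CPM. TCF7L2 was at 294, 345, 299 and 360 CPM in the cluster led by HSD11B2 and COMP and at 191, 293, 205 and 292 CPM in the cycling cluster led by ASPM and KIF14. The other clusters had at most 72.3 CPM. These 2 clusters held more MKI67, a gene of dividing cells, than the others, with means of 23.4 and 316 CPM against at most 9.03 CPM.

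SOX5 was spread more widely over the granule clusters. It had 733, 378, 795 and 390 CPM in the cluster led by EBF3 and NHLH1, genes of newly formed neurons, and 80.7, 52.5, 61.4 and 66.3 CPM in the cluster led by GABRA6 and GRM4, receptor genes of mature granule cells. SOX6 in granule nuclei was measured at 24.5, 27.1, 29.0 and 29.0 CPM, where free RNA was estimated to give 28.7, 25.1, 18.7 and 23.7 CPM. Over the whole class it was thus not above this estimate in every library, though the estimate can be too high, as for OLIG2 in these nuclei. In the cluster led by HSD11B2 and COMP it was at 74.2, 36.2, 100 and 94.4 CPM, above those values in 4 of 4 libraries.

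Genes whose level was most like that of a member were sought among 7318 genes over 13 classes and stages with at least 10 nuclei in every library, which leaves out the cycling and myelinating stages. For OLIG2 these were SUSD5 (Pearson r = 0.98), NKAIN4 (0.97), NEU4 (0.95), UGDH (0.94) and BCAS1 (0.93). For MYRF they were the myelin genes MOBP (0.97) and MOG (0.97), then RTN4 (0.96), which encodes Nogo, CNP (0.96) and AOPEP (0.94). The genes most like TCF7L2 were GNB4 (0.96), ITPR2 (0.93), UST (0.93), USP25 (0.92) and INPPL1 (0.92). SOX6 was followed by SOX2 (0.99), ATP10B (0.95), KCNJ10 (0.94), ADGRA1 (0.93) and NTNG1 (0.93), and SOX5 less closely by RFTN2 (0.92), BCHE (0.90), WBP4 (0.88) and VEZF1 (0.88). These correlations describe 13 points that share libraries and depth, and carry no test. For OLIG2 and MYRF most of these points lay near 0 CPM, so r rested mainly on the oligodendrocyte stages. Over precursors, premyelinating and myelinating nuclei SOX2 had 922, 829 and 1479 CPM on average, where SOX6 had 2847, 2804 and 53.5 CPM. In myelinating nuclei NTNG1 was low like SOX6, at 11.8 CPM. BCAS1 went from 736 to 7924 CPM between precursors and premyelinating nuclei. OLIG2 fell there from 134 to 56.6 CPM, and NKAIN4 from 244 to 82.4 CPM.

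LPS and Control were compared on UMIs summed per library with the quasi-likelihood test of edgeR, and a gene was called at an adjusted p under 0.1 and a log2 fold change over 0.25 in size. No member was called in the oligodendrocyte lineage, where 0 of 8049 genes passed (0%), 82 had an unadjusted p under 0.05, and DESeq2 called 1 gene. The same held in precursors (0 of 2852 genes, 0%; 23 at an unadjusted p under 0.05; DESeq2 0) and in later oligodendrocytes, which are the premyelinating and myelinating nuclei together (0 of 5721 genes, 0%; 73; DESeq2 0). Every member fold change in the lineage had an adjusted p of 1 in edgeR. Each count of genes at an unadjusted p under 0.05 was below the 0.05 share expected where no gene differs. The spread of this fit includes any difference between the sexes. A p that misses the threshold does not show that the groups were alike, so the intervals are given.

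**Figure D5:**
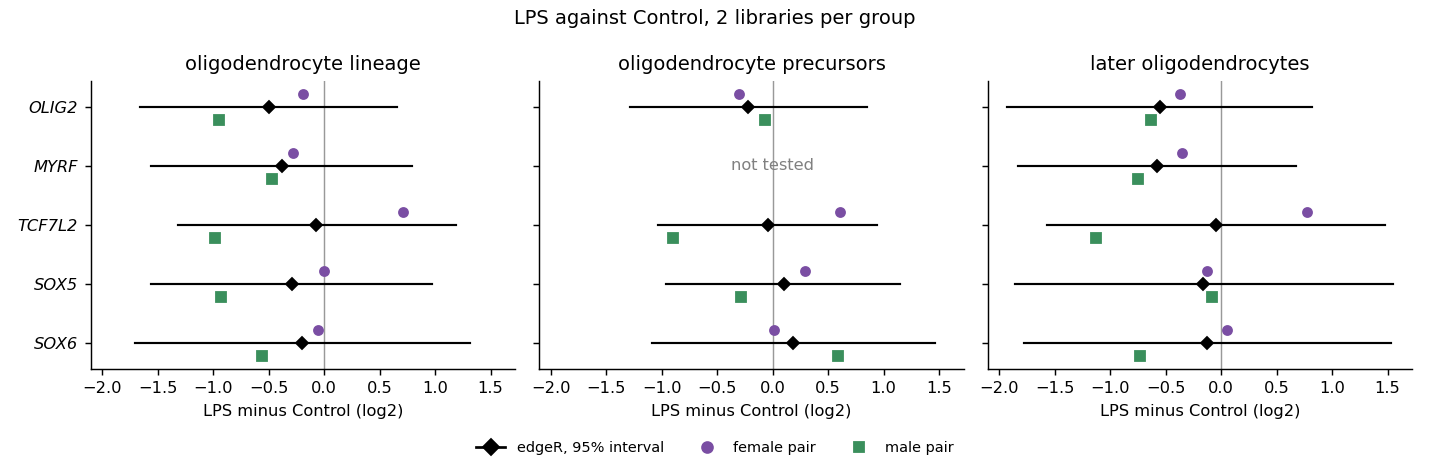
LPS against Control for OLIG2, MYRF, TCF7L2, SOX5 and SOX6 in the oligodendrocyte lineage, precursors and later oligodendrocytes (panels). The x axis is the log2 difference, LPS minus Control; diamonds are edgeR fold changes with 95% intervals, circles the difference between both female libraries and squares that between both male libraries. Every interval includes 0, and for TCF7L2 the female and male differences lie on opposite sides of 0 in all 3 panels.

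OLIG2 in the lineage was at 102 and 69.8 CPM in Control and 89.1 and 35.7 CPM in LPS, and the groups overlapped. Its log2 fold change was -0.50 ± 0.517 (SE, 95% interval -1.66 to 0.66). Inside precursors it was -0.22 (-1.29 to 0.85). In later oligodendrocytes, at 66.8, 39.7, 51.5 and 25.3 CPM, it was -0.55 (-1.93 to 0.82).

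MYRF in the lineage was at 114 and 312 CPM in Control and 94.3 and 225 CPM in LPS, with a log2 fold change of -0.38 ± 0.523 (SE, -1.56 to 0.79). In later oligodendrocytes it was at 219, 622, 172 and 370 CPM, and the fold change was -0.58 ± 0.558 (SE, -1.83 to 0.67). The highest library was Control male and the lowest LPS female in both comparisons, and the groups overlapped. MYRF did not pass the filter on low counts in precursors. By stage, the female and male differences were -0.74 and -0.91 in premyelinating nuclei and 0.81 and 1.45 in myelinating nuclei. Without myelinating nuclei the fold change was -0.83 in later oligodendrocytes and -0.91 in the lineage.

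For TCF7L2 the female and the male difference had opposite signs, as in 48.9% of all genes in the lineage. In the lineage it was at 1682 CPM in Control female and 2751 CPM in LPS female, a log2 difference of 0.71, and at 2772 CPM in Control male and 1405 CPM in LPS male, a difference of -0.98. The combined fold change was -0.07 ± 0.559 (SE, -1.32 to 1.19). The female and male differences were 0.61 and -0.90 in precursors and 0.77 and -1.13 in later oligodendrocytes, and the fold changes there -0.04 (-1.03 to 0.94) and -0.05 (-1.57 to 1.48). In premyelinating nuclei alone, at 3420, 5798, 6135 and 5081 CPM, the female difference was 0.84 and the male difference -0.19, and the fold change without myelinating nuclei, of which LPS male held 57 of 81, was 0.34.

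In SOX5 and SOX6 the female and male libraries lay apart in both groups. SOX5 in the lineage had a log2 fold change of -0.29 ± 0.564 (SE, -1.56 to 0.97), and its female against male difference was 0.67 in Control and 1.59 in LPS. For SOX6 the fold change was -0.20 ± 0.673 (SE, -1.71 to 1.31), and the female against male difference 1.09 in Control and 1.59 in LPS. LPS male held 57 of the 81 myelinating nuclei. The male LPS minus Control difference in the lineage was -0.93 for SOX5 and -0.56 for SOX6. For SOX5 it was -1.51, -0.29, 0.64 and -0.49 in cycling, precursor, premyelinating and myelinating nuclei. For SOX6 it was -1.12, 0.59, 0.22 and 5.94, the last from 0 UMIs in Control male. The cycling values include the LPS male nuclei that were rich in granule markers. The part of the stage mix and of those nuclei was not tested. In precursors the fold changes of SOX5 and SOX6 were 0.10 (-0.96 to 1.15) and 0.18 (-1.09 to 1.46), and in later oligodendrocytes -0.16 (-1.86 to 1.55) and -0.13 (-1.78 to 1.53).

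By treatment, no member had both LPS libraries above or below both Control libraries in the lineage, where 11.9 and 10.1% of all genes did so. By sex, 3 members of 5 tested in the lineage, OLIG2, SOX5 and SOX6, were higher in both female libraries, as were 21.7% of all genes, and MYRF was higher in both male libraries, as were 35.1%. In precursors no member was apart by treatment (11.3 and 10.8% of all genes higher and lower in LPS), OLIG2, SOX5 and SOX6 were higher in both female libraries (21.5%) and none was higher in both male libraries (31.8%). In later oligodendrocytes no member was apart by treatment (11.5 and 10.9%), the same 3 were higher in both female libraries (18.9%) and MYRF in both male libraries (33.2%). In the sum over all nuclei 30.1% of genes were higher in both female and 37.6% in both male libraries. SOX5 and SOX6 were each higher in both female libraries in 7 of the 12 classes with at least 10 nuclei in every library. OLIG2 was so in 5. A class had 20.2 to 30.5% of genes with at least 10 UMIs in that order. Outside the oligodendrocyte and granule lineages OLIG2 had at most 9 UMIs in a class, so it was not among those genes there. TCF7L2 was higher in both male libraries in 6 classes and MYRF in 5, beside SOX5 in 2 and SOX6 in 1, where a class had 21.9 to 36.8% of genes in that order. By treatment, SOX5 and SOX6 were each higher in both LPS libraries in 2 classes (7.83 to 13.8% of genes), and OLIG2, TCF7L2 and SOX6 lower in both in 1 class each (5.85 to 15.5%). The OLIG2 class was again one with at most 9 OLIG2 UMIs, outside the genes that give these shares. The female libraries are also the deeper ones, and the part of depth in these differences was not tested.

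In the sum over all nuclei, in astroglia, in the granule lineage and in inhibitory interneurons no member was called either. The genes called were 0 of 16135, 0 of 11914, 0 of 14899 and 0 of 10485 (0% each), 37, 40, 28 and 31 genes had an unadjusted p under 0.05 in edgeR, and DESeq2 called 0 in each. In astroglia, which are Bergmann glia and astrocytes, TCF7L2 had 617, 837, 677 and 712 CPM and a log2 fold change of -0.06 (-0.83 to 0.71). Those of SOX5 and SOX6 were -0.03 (-1.37 to 1.31) and -0.07 (-1.84 to 1.70). In granule nuclei SOX6 was the only member with both LPS libraries above both Controls, at 29.0 and 29.0 against 24.5 and 27.1 CPM, as had 7.1% of all genes, with a log2 fold change of 0.17 (-0.57 to 0.91). The LPS male library stood apart in inhibitory interneurons, where SOX6 was at 156, 103, 151 and 26.9 CPM and the log2 fold change -0.53 (-2.47 to 1.41). Free RNA was estimated to give 30.4, 21.5, 19.1 and 23.2 CPM, and the LPS male level was close to this estimate, which can be too high. PAX2+ nuclei, which held more SOX6 than molecular layer interneurons (13.9 to 34.1 CPM), were 328 of 442, 369 of 527, 238 of 327 and 181 of 353 of the class, and within PAX2+ nuclei SOX6 was at 225, 145, 222 and 41 CPM. Without the LPS female library the fold change was -2.39 with an adjusted p of 0.0164 in edgeR, the only call of a member under any setting tried. The LPS group of that fit was the LPS male library alone, and 78 of 11075 genes (0.704%) were called in it.

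The genes around the members were read from 6 lists. None of their genes was called in the lineage, in precursors or in later oligodendrocytes. Of 30 other transcription factors of the lineage 17 were tested in the lineage, with a median log2 fold change of -0.03, beside 0.00 over all genes. ZEB2, a repressor that allows differentiation, was at 1915, 1326, 1885 and 1313 CPM, and its mean was 857, 2144 and 2970 CPM in precursors, premyelinating and myelinating nuclei. TCF12 and TCF4, the binding partners of OLIG2, had fold changes of -0.06 and -0.05. Of 12 chromatin and membrane cofactors 10 were tested, with a median of 0.01, and CHD7, NCOR1 and SMARCA4 stood at 0.03, -0.06 and -0.43. CHD7, a chromatin remodeller, had means of 862, 815 and 966 CPM over the same stages.

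Of 18 Wnt and beta-catenin genes 10 were tested, with a median of 0.11, and TCF7L1, TLE4 and LGR4 had fold changes of -0.14, 0.15 and 0.26. TLE4, a co-repressor that binds TCF factors, was at 150, 117 and 414 CPM on average in precursors, premyelinating and myelinating nuclei, so its stage order differed from that of TCF7L2. LGR4 and TCF7L1 were both lowest in myelinating nuclei, at 50 and 147 CPM.

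The stage markers give the setting in which the members were measured. The median fold change in the lineage was -0.42 over 8 precursor genes, -0.10 over 8 premyelinating genes and 0.42 over 14 myelin genes tested of 16. The 14 myelin genes had fold changes of 0.29 to 1.02, and 4 of them, MBP, MOG, MAL and PLLP, named after their values were seen, were higher in both LPS libraries than in both Controls, beside 11.9% of all genes. The 8 precursor genes had fold changes of -0.62 to -0.32, and 2 of them, PTPRZ1 and TNR, named likewise, were lower in both LPS libraries, beside 10.1% of all genes. MBP was at 4268, 3899, 4300 and 9484 CPM, so LPS female lay close to Control female and LPS male was higher. The myelin gene MOBP had a within-female difference of -0.20 and a within-male difference of 1.91 on the log2 scale. LHFPL3, PCDH15 and PTPRZ1, genes of precursors, had fold changes of -0.47, -0.49 and -0.40, and BCAS1, TNS3 and TMEM108, genes of the premyelinating stage, -0.04, -0.49 and -0.37. Within precursors the medians of the precursor and premyelinating lists were -0.09 and -0.17.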

How the data were processed

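Per the labels and methods, the authors mapped reads to the rhesus genome (Mmul_8.0.1, Cell Ranger 4 in the submitters' processing notes) with introns included, and deposited UMI counts per gene and barcode, unfiltered and not normalized. Reads of genes that share sequence could be split or lost in that step.

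Nuclei (500 or more genes, no more than 5% mitochondrial UMIs) were integrated in Seurat 5.3.0. Settings were 2000 variable features without the 6 members that had a row, 30 dimensions (15 for the lineage) and resolution 0.5. A cluster took the class with the highest mean log2 difference of its markers, if at least 3 were raised. A cluster of 2454 nuclei with few UMIs, 1902 of them from LPS male, and a cluster with 67.8% doublets were left unnamed. Doublets were called by Scrublet in scanpy 1.11.5 and kept; where its threshold had marked 0% of a library, the median of the other libraries was used. Free RNA was kept in the counts.

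UMIs summed per library were tested in R 4.3.3 with edgeR 4.0.16 (filterByExpr, TMM, Benjamini-Hochberg over all genes tested), after a test on simulated data; DESeq2 1.42.0 was the other tool. Mean levels and log2 differences between classes used a pseudocount of 1 CPM. Steps between neighbours in an order of levels were taken as beyond the spread where 4 of 4 libraries agreed in sign and the mean log2 difference exceeded its SD. Named genes were the 8 members, the 5 genes most like each, and the 3 of each list with the highest level in the lineage; a few of these are not reported here. The members and lists were chosen with earlier results of these data known.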

Additional observations from a re-analysis of the deposited data

Results flagged for a closer look

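TCF7L2 differed between LPS and Control in opposite directions in the female and the male pair of libraries, in all 7 comparisons, by more than 0.25 on the log2 scale in both pairs in 6 of them, and in each the difference between the sexes was not tested. The comparisons rest on the same 4 libraries and share nuclei, so they do not repeat each other independently, and 48.9 to 54.6% of all genes tested had opposite signs in a comparison, 10.4 to 23.2% beyond 0.25 in both pairs. On the log2 scale, LPS minus Control, the female and male values were 0.71 and -0.98 in the oligodendrocyte lineage, 0.61 and -0.90 in precursors and 0.77 and -1.13 in later oligodendrocytes. In premyelinating nuclei alone they were 0.84 and -0.19. They were 0.27 and -0.49 in the sum over all nuclei, 0.30 and -0.40 in the granule lineage and 0.46 and -0.35 in inhibitory interneurons. In the last the levels were 16.3, 70.3, 22.7 and 55 CPM, where free RNA was estimated to give 17.5, 40.3, 12.8 and 37.9 CPM. In astroglia the female and male differences were 0.13 and -0.23. Each pair is 2 fetuses with 1 library each, so these values carry no replicate check.

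SOX5 also had opposite signs beyond 0.25 in precursors, with 0.29 in the female pair and -0.29 in the male pair, and in the granule lineage, with 0.36 and -0.33. With a smaller value in at least 1 pair, its signs were also opposite in the sum over all nuclei (0.19 and -0.19), in astroglia (-0.08 and 0.14) and in inhibitory interneurons (0.05 and -0.44). Those of SOX6 were so in later oligodendrocytes (0.05 and -0.73) and astroglia (0.10 and -0.45), and those of OLIG2 in the sum over all nuclei (-0.26 and 0.19). MYRF did so beyond 0.25 in the granule lineage, with 0.38 and -0.45, where its level was under 3 CPM in every library. The differences between the sexes were not tested here either.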

How the results depend on the processing

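No member was called under any other setting, and with a library left out the calls of members ran from 0 to 1 in inhibitory interneurons (SOX6) and stayed at 0 elsewhere. Counts of called genes over all genes moved. In the oligodendrocyte lineage DESeq2 called 1, a fit without the filter on low counts 9, a fit with sex as a term 14, and fits without a library 12 to 51. In precursors the fit without the filter called 1 and fits without a library 0 to 7. Later oligodendrocytes gave 10 and 3 to 23, astroglia 13 and 0 to 32, and inhibitory interneurons 0 to 78 without a library. Replicate numbers follow the order of the samples and do not define pairs. The fit with sex as a term, 1 female and 1 male library a group, was the only blocked fit run. Its SE in the lineage was 0.322 for OLIG2, 0.259 for MYRF, 0.334 for TCF7L2, 0.271 for SOX5 and 0.296 for SOX6. Each was below the SE of the main fit, from which the intervals above come.

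With a library left out, every member fold change except that of SOX6 in the granule lineage changed sign for at least 1 library (29 of 30 fold changes; 48 of 120 values reversed). The ranges of the log2 fold change over the 4 fits without a library ran in the oligodendrocyte lineage -1.38 to 0.06 for OLIG2, -1.07 to 0.37 for MYRF, -0.72 to 0.37 for TCF7L2, -1.40 to 0.32 for SOX5 and -1.31 to 0.54 for SOX6. In precursors -0.44 to 0.14 for OLIG2, -0.68 to 0.38 for TCF7L2, -0.69 to 0.57 for SOX5 and -0.42 to 1.23 for SOX6. In later oligodendrocytes -1.25 to 0.04 for OLIG2, -1.12 to 0.22 for MYRF, -0.86 to 0.48 for TCF7L2, -1.57 to 1.34 for SOX5 and -1.43 to 0.57 for SOX6. In all nuclei -0.70 to 0.81 for OLIG2, -0.67 to 1.02 for MYRF, -0.37 to 0.20 for TCF7L2, -0.63 to 0.59 for SOX5 and -0.81 to 0.43 for SOX6. In astroglia -0.16 to 0.05 for TCF7L2, -0.56 to 0.70 for SOX5 and -1.20 to 0.72 for SOX6. In the granule lineage -2.56 to 1.13 for OLIG2, -0.68 to 0.79 for MYRF, -0.40 to 0.33 for TCF7L2, -0.78 to 0.67 for SOX5 and 0.17 to 0.19 for SOX6. In inhibitory interneurons -0.85 to 1.14 for TCF7L2, -0.86 to 0.31 for SOX5 and -2.39 to 0.25 for SOX6. The lone library of a group was then assumed to vary like the other group.

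Of 263 member fold changes under the other settings 248 kept their direction and 15 reversed, and the cause was not tested. The reversed values were, for TCF7L2, 0.04 in precursors with 1000 or more genes, 0.02 in astroglia and 0.04 in the granule lineage with free RNA subtracted, 0.02 in the granule lineage and 0.07 in inhibitory interneurons with classes from a marker score, and 0.05 in inhibitory interneurons without doublets. For SOX5 they were 0.02 in astroglia with sex as a term, and 0.04 in later oligodendrocytes and 0.02 in inhibitory interneurons with the marker score, and for MYRF 0.04 in the granule lineage with sex as a term. The following settings were chosen after seeing the data. Without the unnamed cluster TCF7L2 in the lineage was 0.02, and without myelinating nuclei 0.08. Without myelinating nuclei the later stage had 0.34 for TCF7L2, 0.14 for SOX5 and 0.20 for SOX6.

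Of 315 levels of members in stages and classes under other settings 20 moved by more than the spread, 12 of them with classes from a marker score, which found few granule nuclei. With that score TCF7L2 in myelinating nuclei was 1095 CPM, against 152 CPM by clusters, so its low level in that stage depends on how the stage is drawn. The counts of OLIG2 (351 UMIs) and MYRF (604 UMIs) limit what can be seen of both.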
